A study of Homo sapiens with 4 samples.

Results

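Tubulin isotypes were examined in HaCaT cells after ALKBH5 knockdown. The isotypes are the 10 genes TUBA1A, TUBA1B, TUBA1C, TUBA4A, TUBB, TUBB2A, TUBB2B, TUBB3, TUBB4B and TUBB6, chosen by their names from the 58735 genes of the deposited count tables. Each of the 10 names had 1 gene in the tables, 4 of them alpha-tubulin and 6 beta-tubulin. HaCaT is an established human keratinocyte line. In the study, cells in six-well plates, kept in DMEM with fetal bovine serum, received 200 pmol of siRNA with a lipofectamine reagent, either a normal control siRNA (siControl, 2 libraries) or a knockdown siRNA for ALKBH5 (siALKBH5, 2 libraries). ALKBH5 is a demethylase that removes the m6A mark from RNA. Which of the study's ALKBH5 siRNAs was used, and whether the libraries of a group came from separate cultures, is not given in the sources used here, so the p-values measure the spread between these libraries, which may be technical.

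Microtubules are hollow polymers of alpha-beta-tubulin dimers, and in keratinocytes they carry cargo, orient migration and build the mitotic spindle. Within the alpha family and within the beta family, the body of the protein is nearly the same in every isotype. The C-terminal tail, which motors and modifying enzymes read, differs. Cells also sense the amount of free tubulin dimer: when it is in excess, TTC5 recognises the first residues of tubulin emerging from the ribosome and the mRNA being translated is degraded, a feedback called tubulin autoregulation.

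Library totals were between 16017502 and 18837807 counts, and mitochondrial RNA took 9.63% to 10.2% of them. Levels are given as CPM, read counts scaled to a common library total with TMM over the whole table. ALKBH5 stood at 93.8 and 87.6 CPM in siControl and at 51.2 and 49.6 CPM in siALKBH5, and the groups did not overlap. The line's label was checked on 7 keratinocyte markers, each present, with a summed level of 16402 to 16818 CPM in siControl and 22356 to 22430 CPM in siALKBH5. Of these, KRT5, KRT14, KRT6A and SFN were higher, KRT17 and TP63 were lower by edgeR (log2 fold change -0.08 and -0.09), and DSG3 did not pass. TP63 no longer passed with DESeq2 (adjusted p = 0.0935). Both falls were smaller in some fits that left out a library. The log2 fold change of TP63 was -0.065 without siControl replicate 2, and that of KRT17 was -0.058 without siALKBH5 replicate 1. Of 7 neuron markers, ELAVL3, ELAVL4 and STMN2 were at 0 in every library, and the list summed to 13.9 to 16.4 CPM against 20.9 to 21.8 CPM. Nearly all of that sum was NEFL, a neurofilament gene, with 16.3 and 13.6 CPM against 20.8 and 21.6 CPM (log2 fold change 0.51, adjusted p = 0.000175 by edgeR). COL1A2 and PDGFRA were at 0 among 5 fibroblast markers, which summed to 21.9 to 22.8 CPM against 18.7 to 19.0 CPM. Most of that sum was the collagen gene COL1A1, which did not pass (-0.04), whereas the matrix proteoglycan genes LUM (-1.09, adjusted p = 0.0209 by edgeR) and DCN (-1.25, adjusted p = 0.000496 by edgeR) were lower. LUM no longer passed with DESeq2 (adjusted p = 0.118) or, by edgeR, in 3 of the 4 fits that left out a library. TYR was at 0 among 5 melanocyte markers, which summed to 2.72 to 3.23 CPM against 3.27 to 3.95 CPM. The part of these shifts in the tubulin values was not tested. In bulk RNA, fewer cells of a type and less RNA per cell cannot be told apart.

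The coding starts are shown because the first 4 codons, in capitals, are the stretch that autoregulation reads. Each line holds the first 30 coding bases, 5′ to 3′, of the principal transcript in GENCODE 29.
TUBA1A: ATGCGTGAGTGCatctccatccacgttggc
TUBA1B: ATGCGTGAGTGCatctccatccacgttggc
TUBA1C: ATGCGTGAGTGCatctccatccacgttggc
TUBA4A: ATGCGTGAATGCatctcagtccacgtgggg
TUBB: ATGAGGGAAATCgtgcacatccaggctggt
TUBB4B: ATGAGGGAAATCgtgcacttgcaggccggg
TUBB6: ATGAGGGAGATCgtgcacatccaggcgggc
TUBB2A: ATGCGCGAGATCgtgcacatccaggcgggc
TUBB2B: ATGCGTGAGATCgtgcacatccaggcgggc
TUBB3: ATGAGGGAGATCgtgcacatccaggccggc
TUBA1A, TUBA1B and TUBA1C had the same 30 bases. TUBB and TUBB4B shared their first 12 bases, as did TUBB3 and TUBB6.

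The coding ends of the beta isotypes are shown because the tail is where they part. Each line holds the last 60 coding bases followed by the stop codon in capitals.
TUBB: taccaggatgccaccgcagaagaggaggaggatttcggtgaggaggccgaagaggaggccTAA
TUBB4B: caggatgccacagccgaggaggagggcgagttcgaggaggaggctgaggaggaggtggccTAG
TUBB6: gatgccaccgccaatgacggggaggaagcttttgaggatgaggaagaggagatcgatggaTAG
TUBB2A: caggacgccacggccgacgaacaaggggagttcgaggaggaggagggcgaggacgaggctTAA
TUBB2B: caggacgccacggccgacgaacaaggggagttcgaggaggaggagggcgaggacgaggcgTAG
TUBB3: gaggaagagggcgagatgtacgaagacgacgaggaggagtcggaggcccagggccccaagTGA
TUBB2A and TUBB2B were identical at 98.3% of the tail and 98.2% of the coding sequence. TUBB and TUBB3 were the least alike of the beta pairs in the tail, with 51.7% identity, although 81.8% of their coding positions matched. Among the last 20 codons, those reading GAG or GAA, which encode glutamate, numbered from 7 in TUBB6 to 10 in TUBB4B. Among the alpha isotypes, the whole coding sequences of TUBA1A and TUBA1B were identical at 97.2% of aligned positions, and TUBA4A matched the others at 84.4% to 85.7%.

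This likeness bears on the counts, since reads that match several genes equally cannot be given to one of them. Of all stretches of 100 bases in the principal transcript, 89.0% in TUBB3, 71.1% in TUBA1B, 56.4% in TUBB2A and 46.2% in TUBB2B occurred exactly in a transcript of another gene, on either strand. The share was 20.4% in TUBB and between 26.6% and 29.6% in TUBA1A, TUBA1C and TUBA4A. TUBB4B shared 4.49% and TUBB6 shared 0. For TUBB3 the other gene was chiefly AC092143.1, a row on the same strand with 14701 bases of overlap and 0 counts in every library, and for TUBB2A and TUBB2B it was chiefly each other. For TUBA1B it was chiefly AC011603.2, an antisense gene with 0 to 6 counts per library, and for TUBA4A it was STK16, a kinase gene on the opposite strand with 561 to 695 counts. How the counting treated such reads, and whether it used strand, is not given in the sources used here, so the levels of TUBB3, TUBA1B, TUBB2A and TUBB2B are uncertain.

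Of the 10 isotypes, 8 passed the filter on low counts. TUBB2B entered only through its siALKBH5 counts and so had to differ, and it is described apart. Each of the other 7 was higher in siALKBH5 by edgeR's quasi-likelihood test at an adjusted p under 0.05. Of all 15075 genes tested, 19.3% were higher and 17.3% were lower at that threshold, with a median log2 fold change of -0.0081. With the additional limit of a log2 fold change of at least 1, which the study used, 3 of the 7, TUBA1B, TUBB and TUBB2A, were called higher, and 1.62% of all tested genes were called higher. TUBA1A and TUBB3 were too low to be tested.

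Alpha-tubulin mRNA came almost wholly from TUBA1B, TUBA1C and TUBA4A, and all of them rose. TUBA1B (ENSG00000123416), a widely expressed alpha isotype at chr12:49127782-49131397 on GRCh38, had 87.9 and 88.8 CPM in siControl and 195 and 206 CPM in siALKBH5. The groups did not overlap, and the mean went from 88.3 ± 0.621 to 200.5 ± 8.47 CPM (SD, n = 2 each), a ratio of 2.27. The log2 fold change was 1.18 (SE 0.04, adjusted p = 3.07e-22 by edgeR). TUBA1C (ENSG00000167553, chr12:49188736-49274603), its neighbour in the same gene cluster, had 109 and 112 CPM in siControl and 203 and 214 CPM in siALKBH5. Both siALKBH5 libraries lay above both siControl libraries, with a log2 fold change of 0.91 (SE 0.04, adjusted p = 7.76e-20 by edgeR). TUBA4A (ENSG00000127824, chr2:219249711-219278170), an alpha isotype on another chromosome, had 74.4 and 78.8 CPM in siControl and 112 and 113 CPM in siALKBH5. Its log2 fold change was 0.55 (SE 0.04, adjusted p = 4.06e-12 by edgeR), the smallest of the 3. The 95% confidence intervals were 1.10 to 1.26 for TUBA1B, 0.84 to 0.99 for TUBA1C and 0.46 to 0.65 for TUBA4A on the log2 scale, and they did not overlap. The differences between the genes were not tested further.

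TUBB and TUBB4B made up most of the beta-tubulin mRNA. TUBB (ENSG00000196230, chr6:30720201-30725426), the common beta isotype of dividing cells, had 239 and 237 CPM in siControl and 511 and 525 CPM in siALKBH5. Its mean went from 238 ± 1.69 to 518 ± 10.2 CPM (SD, n = 2 each), a ratio of 2.18, and the log2 fold change was 1.12 (SE 0.03, adjusted p = 2.66e-26 by edgeR). TUBB4B (ENSG00000188229, chr9:137241213-137243707), a broadly expressed isotype also used in cilia, had 346 and 348 CPM in siControl and 537 and 527 CPM in siALKBH5. Per kb of gene length it was the most abundant isotype in every library. Its log2 fold change was 0.62 (SE 0.02, adjusted p = 5.11e-20 by edgeR), and its 95% confidence interval of 0.57 to 0.67 lay below that of TUBB, 1.07 to 1.18. TUBB6 (ENSG00000176014, chr18:12307669-12344320), an isotype whose coding sequence matched TUBB at 80.9% of positions, the lowest of the beta pairs, had 59.8 and 54.0 CPM in siControl and 67.9 and 66.1 CPM in siALKBH5. The groups did not overlap, but the log2 fold change was only 0.24 (SE 0.06, adjusted p = 0.00100 by edgeR). Without siControl replicate 2 the log2 fold change of TUBB6 was 0.16 and no longer passed (adjusted p = 0.0666 by edgeR).

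**Figure D1:**
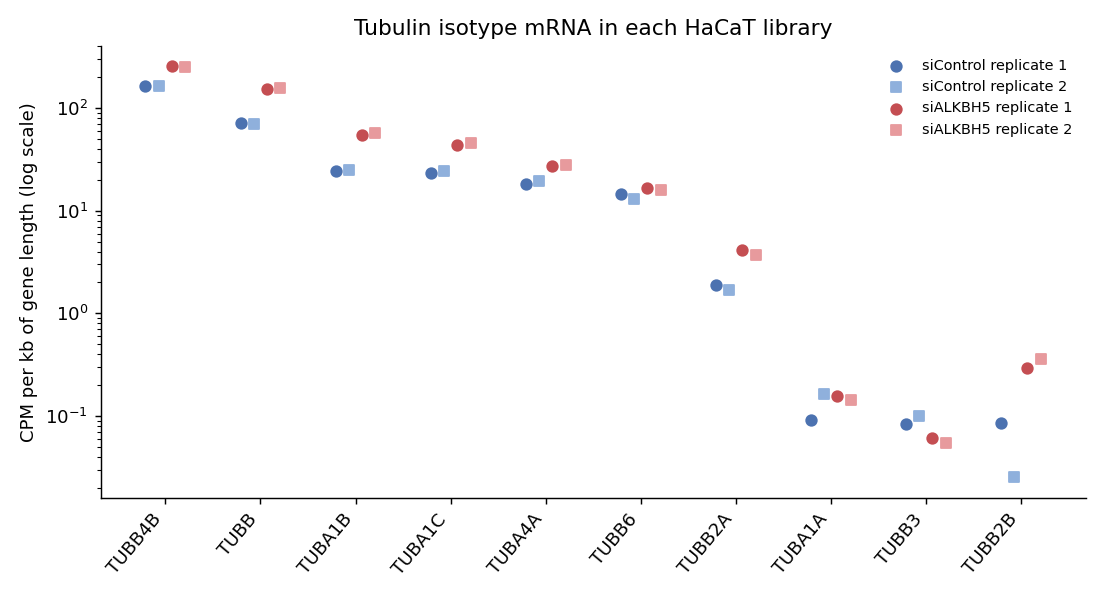
Level of each tubulin isotype in each library, as CPM per kb of the listed gene length on a log scale, ordered by the siControl mean. Circles and squares are the libraries of replicate 1 and 2, blue for siControl and red for siALKBH5. The red points of TUBA1B at 54.4 and 57.8 and of TUBB at 152 and 156 stand above the blue ones, whereas those of TUBA1A fall between its blue points.

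The scarcer beta isotypes are known from neurons. TUBB2A (ENSG00000137267, chr6:3153669-3157526), abundant in brain, gave 53 and 52 reads with the control siRNA, against 135 and 106 after knockdown. In CPM these were 3.29 and 2.89 against 7.23 and 6.44, with a log2 fold change of 1.15 (SE 0.19, adjusted p = 8.84e-06 by edgeR). TUBB2B (ENSG00000137285, chr6:3224261-3231730), its close copy and an isotype of migrating neurons, was counted 3 and 1 times with the control siRNA, against 12 and 13 after knockdown. Pooled over the libraries of a group these were 4 against 25 counts, a ratio of 5.97 with a 95% counting interval of 2.06 to 23.6 that covers counting error only. The fitted log2 fold change was 2.60 (SE 0.77), given with no test because of how the gene passed the filter. With no filter on low counts it was 2.61 (adjusted p = 0.00763 by edgeR). With 1 library left out, the log2 fold change lay between 1.94, without siControl replicate 2, and 3.68, without siControl replicate 1, so single libraries decided its size. Since TUBB2A and TUBB2B share long exact stretches, how their reads divide is uncertain.

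Both isotypes best known as neuronal, TUBA1A and TUBB3, were near the limit of detection. TUBA1A (ENSG00000167552, chr12:49184796-49189324), the main alpha isotype of postmitotic neurons, was counted 5 and 10 times with the control siRNA, against 10 and 8 after knockdown, and the groups overlapped. With no filter on low counts its log2 fold change was 0.23 (adjusted p = 0.852 by edgeR). TUBB3 (ENSG00000258947, chr16:89921392-89938761), the beta isotype used to mark neurons, gave 6 and 8 reads with the control siRNA, against 5 and 4 after knockdown. The CPM of the groups did not overlap, but with no filter the log2 fold change of -0.67 did not pass (adjusted p = 0.675 by edgeR). A difference was not detectable at this depth for either gene, and the counts of TUBB3 may leave out reads shared with AC092143.1.

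**Figure D2:**
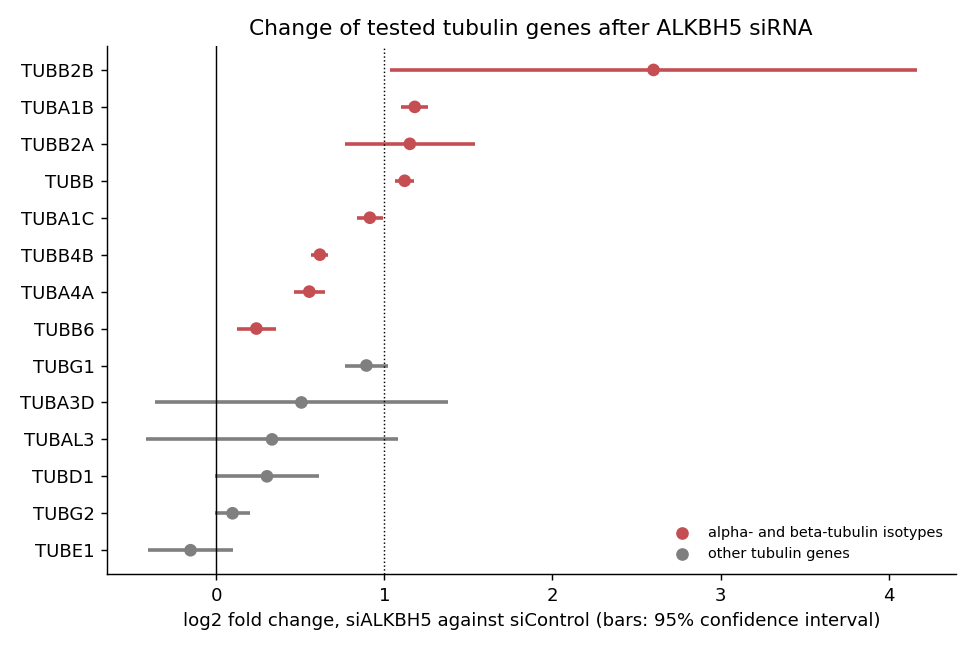
The log2 fold change of each tested tubulin gene, siALKBH5 against siControl, with its 95% confidence interval, in red for the isotypes and in grey for other tubulin genes. Solid and dotted lines mark 0 and 1. The interval of TUBB runs from 1.07 to 1.18. That of TUBB2B, with few counts, runs from 1.03 to 4.17. It is not to be read as a test, since the passing of the filter fixed the direction of TUBB2B.

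The order of the levels was read per kb of the listed gene length. In siControl it ran from TUBB4B at a mean of 164 CPM per kb through TUBB at 70.9, TUBA1B at 24.7, TUBA1C at 23.9, TUBA4A at 18.8, TUBB6 at 13.8 and TUBB2A at 1.79. TUBA1A, TUBB3 and TUBB2B followed at 0.127, 0.0922 and 0.0551 CPM per kb, and their libraries overlapped. TUBA1B with 24.6 and 24.8 CPM per kb and TUBA1C with 23.6 and 24.2 CPM per kb were neighbours in siControl by this length. Their order turned in raw counts, where TUBA1C was the higher, and the gap between them depended on the length used. In siALKBH5 the first 7 genes kept this order, with TUBA1B at 56.1 ± 2.37 and TUBA1C at 45.0 ± 1.69 CPM per kb (SD, n = 2 each), and TUBB2B at 0.326 stood above TUBA1A at 0.149 and TUBB3 at 0.0576.

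The makeup of each pool was then given as the share of each isotype in the summed CPM per kb. Among alpha isotypes, TUBA1B held 37.0% and 36.3% in siControl and 43.2% and 43.8% in siALKBH5. TUBA4A held 27.4% and 28.2% against 21.8% and 21.1%. The TUBA1B share was thus higher and the TUBA4A share lower in both siALKBH5 libraries, by means of 6.89 and -6.39 percentage points. TUBA1C held 35.5% and 35.3% against 34.8% and 35.0%, a difference of -0.430 points, and the groups overlapped when raw counts were used in place of counts per length. The levels of the TUBA1B and TUBA1C shares depended on the length used. By transcript length their siControl means were 42.8% and 29.1%, in place of 36.6% and 35.4%. In siALKBH5 they were 50.3% and 28.4% by transcript length. Among beta isotypes, TUBB held 28.3% and 28.2% in siControl and 35.6% and 36.7% in siALKBH5. TUBB4B held 65.1% and 65.9% against 59.5% and 58.6%, and TUBB6 held 5.77% and 5.24% against 3.86% and 3.77%. The level of the TUBB6 share depended on the length used: by raw counts it was 9.22% and 8.40% against 6.04% and 5.87%, and its change was -2.85 in place of -1.69 percentage points. By transcript length it was 8.72% and 7.93% against 5.90% and 5.77%. TUBB2A had a mean share of 0.712% in siControl and 0.927% in siALKBH5, and TUBB2B and TUBB3 held between 0.0101% and 0.0844% in every library, although by transcript length the mean TUBB3 share in siControl was 0.0698% in place of 0.0367%. The shares were not tested, because 2 libraries against 2 give an exact two-sided permutation p of 0.333 at the lowest.

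**Figure D3:**
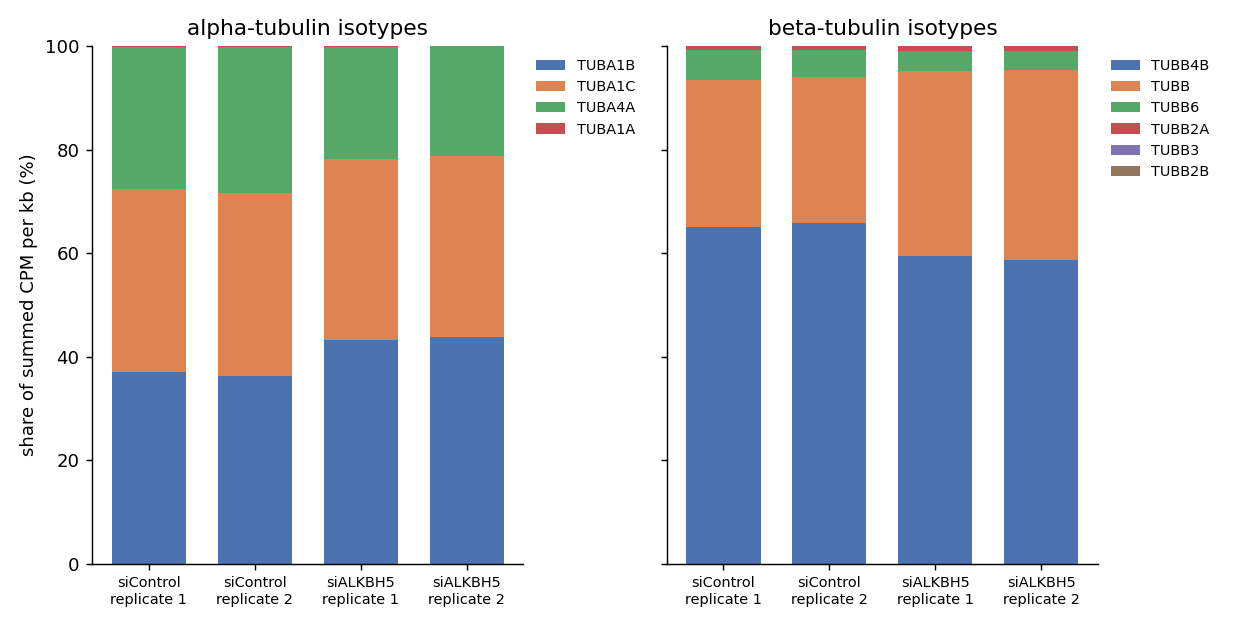
Stacked bars of the share of each isotype in the summed CPM per kb of the alpha isotypes (left) and beta isotypes (right), 1 bar per library, in percent. TUBA1B went from 36.3% and 37.0% to 43.2% and 43.8%, and TUBB from 28.2% and 28.3% to 35.6% and 36.7%.

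Summed over its isotypes, alpha-tubulin mRNA was 66.5 and 68.5 CPM per kb in siControl and 126 and 132 CPM per kb in siALKBH5, a ratio of 1.91. The beta sum was 252 and 250.3 CPM per kb against 428 and 426 CPM per kb, a ratio of 1.70. The alpha sum relative to the beta sum was 0.264 and 0.274 in siControl and 0.294 and 0.309 in siALKBH5, and these ranges did not overlap. The level of this ratio depends on the gene length used. In plain CPM the alpha sum was 272 and 280 in siControl and 510 and 534 in siALKBH5. The beta sum in plain CPM was 649 and 642 against 1125 and 1126. The 10 isotypes took 0.0926% and 0.0928% of all counts in siControl and 0.162% and 0.164% in siALKBH5.

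The 12 other listed tubulin genes had few counts, apart from gamma-tubulin. TUBG1, the gamma-tubulin that seeds microtubules at centrosomes, had 33.0 and 37.5 CPM in siControl and 65.9 and 65.3 CPM in siALKBH5, with a log2 fold change of 0.89 (SE 0.06, adjusted p = 2.20e-13 by edgeR). TUBG2, a close paralog with which reads may be shared, had 69.1 and 64.7 CPM against 70.4 and 72.8 CPM and did not pass (log2 fold change 0.10, adjusted p = 0.146 by edgeR). The centriolar tubulins TUBD1 and TUBE1 had 100 to 149 and 191 to 222 counts per library, with log2 fold changes of 0.30 and -0.15 that did not pass. TUBA3D and TUBAL3 had 11 to 28 counts and did not pass either. TUBB1, the platelet isotype, had 5 to 12 counts, TUBA8, TUBA3E and TUBB8 had 0 to 3 counts, and TUBA3C and TUBB4A had 0 in every library. Of these 12 genes, 6 were tested, 1 was higher and 0 were lower. The share higher was 16.7%, close to the 19.3% of all tested genes, of which 17.3% were lower.

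Tubulin has many pseudogenes in the genome, both processed and unprocessed copies. The tables listed 37 tubulin pseudogenes, of which 6 had any count, summing to 124 and 155 reads under control siRNA and 202 and 180 after knockdown. TUBBP5, listed as an unprocessed copy, had 97 and 122 counts against 125 and 99, and its groups overlapped in CPM. TUBBP1, which shares exact stretches with TUBB, was counted 19 and 27 times with the control siRNA, against 63 and 73 after knockdown, with a log2 fold change of 1.53 (SE 0.28). These counts were small beside the 3857 to 9545 counts of TUBB.

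Genes that fold, modify, seed or bind tubulin were read beside the isotypes. The folding list holds the prefoldin subunits and the chaperonin CCT, which fold newly made tubulin, and the cofactors that join the dimer. Of its 21 rows tested, TBCE being named on more than 1 row, 9 were higher and 2 lower, with a median log2 fold change of 0.08. These are 42.9% and 9.52% of the list, beside 19.3% and 17.3% of all tested genes. The lower genes numbered 4 with library size only or with the replicate block. TBCD, a cofactor that holds beta-tubulin, and ARL2, its small GTPase partner, had the largest rises, at 0.56 and 0.50 on the log2 scale (SE 0.05 and 0.08). TBCC, the cofactor that releases the finished dimer, fell by 0.36 (SE 0.09, adjusted p = 0.00139 by edgeR), and the prefoldin subunit PFDN5 fell by 0.20 (SE 0.03, adjusted p = 2.12e-05 by edgeR).

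The autoregulation list joins TTC5 with SCAPER and CCR4-NOT subunits, through which the mRNA is deadenylated. TTC5 itself was counted 281 and 296 times with the control siRNA, against 280 and 281 after knockdown, and with a log2 fold change of -0.08 (SE 0.11, adjusted p = 0.592 by edgeR) it did not pass. SCAPER, the adaptor between TTC5 and CCR4-NOT, was counted 197 and 216 times against 266 and 257, a log2 fold change of 0.30 (adjusted p = 0.0413 by edgeR). That call was lost under 6 of 10 alternatives, among them DESeq2 (adjusted p = 0.165), library size only and no filter, with adjusted p-values from 0.0277 to 0.214 over the 10. CNOT1, the scaffold of CCR4-NOT, was higher by 0.20 on the log2 scale (SE 0.03, adjusted p = 1.79e-07 by edgeR). Of the 5 genes, 2 were higher and 0 lower, with a median log2 fold change of 0.11, where 19.3% of all tested genes were higher.

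The modification list holds enzymes that act on the tubulin tail, the enzymes ATAT1, HDAC6 and SIRT2, which add or remove an acetyl group on a lysine of alpha-tubulin outside the tail, and SVBP, the binding partner of the vasohibins. Of 15 genes tested, 3 were higher and 2 lower, with a median log2 fold change of 0.04. These are 20% and 13.3% of the list, close to the 19.3% and 17.3% of all tested genes. ATAT1, HDAC6, SIRT2 and SVBP did not pass. TTL, the ligase that puts tyrosine back on alpha-tubulin, was counted 483 and 540 times against 682 and 584, a ratio of 1.20 in CPM and a log2 fold change of 0.26 (SE 0.07). TTLL11, a polyglutamylase, was higher by 0.42 (SE 0.15), a call lost under 3 of 10 alternatives (adjusted p up to 0.208). AGBL2, a carboxypeptidase of the deglutamylase family, had 4.47 and 4.11 CPM in siControl and 1.98 and 1.82 CPM in siALKBH5 and fell by 1.17 on the log2 scale (SE 0.24, adjusted p = 0.000255 by edgeR). TTLL3, a glycylase, fell by 0.44 (SE 0.16, adjusted p = 0.0369 by edgeR), a call lost under 5 of 10 alternatives, DESeq2 among them (adjusted p = 0.195).

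In the nucleation list, with the gamma-tubulin ring complex and the augmin complex (HAUS), 11 of 19 genes tested were higher and 0 lower, with a median log2 fold change of 0.23. This is 57.9% of the list beside 19.3% of all tested genes, and the count was 7 with DESeq2 or without siALKBH5 replicate 2. TUBG1 and the augmin subunit HAUS8 had the largest rises, and HAUS8 went from 7.82 and 8.56 CPM to 13.3 and 12.2 CPM (log2 fold change 0.63, SE 0.13). Of 27 genes tested that bind or sever microtubules, 14 (51.9%) were higher and 2 (7.41%) lower, beside 19.3% and 17.3% of all tested genes, with a median log2 fold change of 0.27. MAP1A, a structural microtubule-associated protein of neurons, gave 4 and 14 reads against 36 and 23 (log2 fold change 1.67, SE 0.46). It counts among the 14 called higher. Its siControl counts alone would not have passed the filter on low counts, so the filter favoured a rise. The log2 fold change of MAP1A was 1.11 without siControl replicate 1 and 1.42 without siALKBH5 replicate 1, and it passed in neither fit. TPX2, a spindle assembly factor, had 180 and 181 CPM in siControl and 346 and 355 CPM in siALKBH5 (log2 fold change 0.96, SE 0.03). The severing enzyme SPAST fell by 0.29 (SE 0.09, adjusted p = 0.00936 by edgeR) and the minus-end binder CAMSAP2 fell by 0.16 (SE 0.06, adjusted p = 0.0249 by edgeR). The SPAST call was lost with DESeq2 (adjusted p = 0.0793) and without siControl replicate 2 or siALKBH5 replicate 1, where edgeR gave adjusted p-values of 0.197 and 0.0593. The CAMSAP2 call was lost with DESeq2 (adjusted p = 0.145), with no filter, and in each fit that left out a library except siControl replicate 2.

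**Figure D4:**
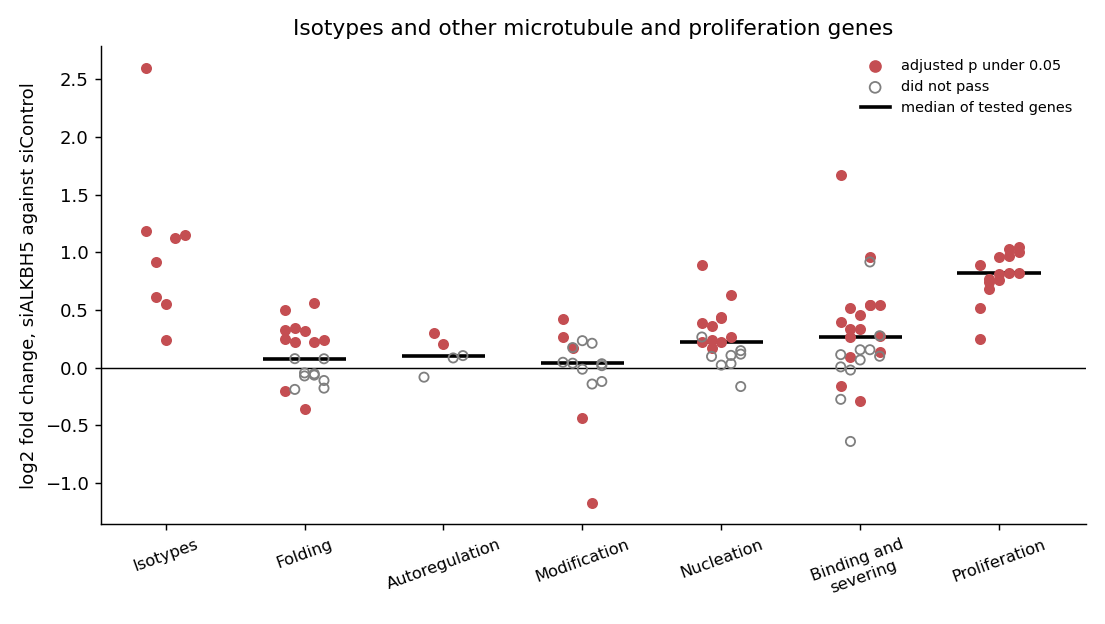
The log2 fold change of each tested isotype and of each tested gene in the 6 lists, siALKBH5 against siControl. Filled points passed at an adjusted p under 0.05, open points did not, and bars mark the median of a list, 0.08 for folding and 0.82 for proliferation. The isotypes lie between 0.24 and 2.60, the highest being TUBB2B, whose passing of the filter fixed its direction.

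Proliferation genes moved with the isotypes. All 15 genes of that list were higher, beside 19.3% of all tested genes. Their median log2 fold change was 0.82. The summed level of the list was 1343 and 1353 CPM in siControl and 2272 and 2263 CPM in siALKBH5. MKI67, a marker of cycling cells, had 195 and 199 CPM against 364 and 366 CPM, a log2 fold change of 0.89 (SE 0.03). TOP2A, the topoisomerase of dividing cells, was higher by 0.68 (SE 0.02), and TYMS and RRM2, which make deoxynucleotides, by 1.04 (SE 0.17) and 1.03 (SE 0.11). In the study's own assays of HaCaT cells, proliferation and the cell cycle were reported as unaltered after ALKBH5 knockdown. Those assays measured cells and not RNA. The part of proliferation in the tubulin values was not tested.

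The genes whose pattern over the 4 libraries was most like the tubulin sums were then listed among 1820 genes with a mean of at least 100 CPM, by the root mean square difference in centred log2 CPM. For the alpha sum these were TPX2 at 0.0244, MKI67 at 0.0264 and FLNA, an actin crosslinker, at 0.0391. For the beta sum they were NCAPD2, a condensin subunit, at 0.00745, MCM7, a subunit of the replicative helicase, at 0.00974, and the mitotic cyclin CCNB2 at 0.0131. With 4 libraries in 2 groups, the measure mainly reads the size of the difference between the groups.

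The bases upstream of the start are shown for TUBA1B, TUBB and TUBB4B, the isotypes with most mRNA per kb and with unequal rises. In CPM, TUBA1C was above TUBA1B in siControl, at a mean of 110.5 against 88.3, and in siALKBH5, at 208.6 against 200.5. Sequences are from RefSeq on GRCh38.p14, 5′ to 3′ on the strand of the gene, up to the start site of both RefSeq and the principal transcript. Capitals mark exact matches on either strand to the CCAAT box, to GGGCGG, the GC box bound by SP1, to TTTGAA, the homology region of many cell cycle promoters, or to TATAAA, the core promoter element bound by TBP.
TUBA1B, chr12:49131396-49131645, minus strand: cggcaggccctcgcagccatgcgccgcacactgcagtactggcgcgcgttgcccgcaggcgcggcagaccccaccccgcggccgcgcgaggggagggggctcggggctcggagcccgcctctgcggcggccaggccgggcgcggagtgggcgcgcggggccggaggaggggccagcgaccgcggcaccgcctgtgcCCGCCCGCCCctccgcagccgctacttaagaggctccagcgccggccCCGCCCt
TUBB, chr6:30720102-30720200, plus strand: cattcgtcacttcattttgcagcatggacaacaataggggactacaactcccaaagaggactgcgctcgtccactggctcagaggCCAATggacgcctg
TUBB4B, chr9:137241037-137241212, plus strand: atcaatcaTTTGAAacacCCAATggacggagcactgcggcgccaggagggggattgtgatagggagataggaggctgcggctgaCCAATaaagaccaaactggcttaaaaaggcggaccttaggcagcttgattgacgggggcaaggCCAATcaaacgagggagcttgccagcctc
Of 35116 windows of 250 bases before a RefSeq start, over 27305 genes, CCAAT was held by 32.0%, GGGCGG by 42.6%, TTTGAA by 13.3% and TATAAA by 10.7%, on either strand. The 250-base window of TUBA1B held 3 GGGCGG, of which a pair overlap by 2 bases, and no CCAAT. That of TUBB4B held 3 CCAAT and 1 TTTGAA, and the window of TUBB nearest its principal start held 1 CCAAT and, past the bases shown, 1 GGGCGG. All 10 isotypes had an entry in the RefSeq table. A match describes the letters only.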

How the data were processed

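RNA of 4 HaCaT libraries, 2 siControl and 2 siALKBH5, was poly-T enriched and sequenced. The submitters' processing notes name CASAVA, HISAT2 2.0.5, featureCounts 1.5.0-p3, DESeq2 1.20.0 and hg38. The authors deposited raw counts per gene, the unit used here, and FPKM, which were scaled within each table and not used. The deposited tables also hold the authors' fold changes and p-values of 1 library against 1, which were not used. Read length and the strand setting of the counting are not given in the sources used here. Totals ranged from 16017502 to 18837807 counts, and the counting interval given for TUBB2B covers counting error only.

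The quasi-likelihood test of edgeR 4.0.16 (R 4.3.3) was run on the counts with TMM scaling, the default filterByExpr filter and group as the single term, over 15075 genes with Benjamini-Hochberg adjustment at 0.05. Log2 fold changes were fitted without a prior count, and standard errors and 95% intervals come from the quasi-likelihood F statistic. CPM used TMM library sizes, and levels per kb used the gene length listed in the tables. The fit was repeated with DESeq2 1.42.0, with DESeq2 size factors or plain library totals in edgeR, without a filter or with 10 counts on average as the minimum, with a block for the replicate number, and without each library in turn. Shares were also taken from raw counts and, chosen after seeing the data, by transcript length. Coordinates are those of GENCODE 29 on GRCh38. Pairs of coding sequences were aligned with Biopython 1.88. The coding ends of the alpha isotypes are not reported here. The steps were tested on simulated counts.

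The 10 isotypes and the gene lists were chosen with earlier results of these data known. Each list gave the passing genes with the 2 largest rises and the 2 largest falls and a mean of at least 1 CPM. Also named were the other tubulin genes of the lists, the 2 pseudogenes with most counts, MKI67 and TOP2A. TTC5, STK16, AC092143.1, AC011603.2, the cell type markers and the modification genes that did not pass were named after their values were seen.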

Additional observations from a re-analysis of the deposited data

How the results depend on the processing

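Each of the 7 tested isotypes other than TUBB2B kept its direction under each alternative. Of 70 pairs of such an isotype and an alternative, 69 stayed on the same side of the threshold and 1 no longer passed, TUBB6 without siControl replicate 2. TUBB2B, whose passing of the filter fixed its direction, had an adjusted p above 0.05 without siControl replicate 2 (0.170) or siALKBH5 replicate 2 (0.0976). With 1 library left out, the lone library of a group was assumed to vary like the other group. DESeq2 gave TUBB2B no adjusted p, with a log2 fold change of 2.60, and a mean of at least 10 counts left it untested. With TUBB2B left out, TUBA1B, TUBB and TUBB2A kept a log2 fold change of at least 1 under each alternative, the lowest values being 1.14, 1.10 and 1.06. TUBA1A, untested, had log2 fold changes from -0.12 to 0.29 in the fits that held it. Change of share kept its sign in all 10 isotypes by raw counts and by transcript length, the latter giving 7.45 points for TUBA1B and -5.62 for TUBB4B.

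The counts in lists were less stable. Autoregulation genes called higher fell from 2 to 1, SCAPER being lost, with DESeq2, library size only or no filter, and numbered 1 to 2 with a library left out. Modification genes called higher were 1 with DESeq2, and those called lower 1 with DESeq2 or no filter and 1 to 2 with a library left out. Nucleation genes called higher were 7 with DESeq2 and 7 to 10 with a library left out. Folding genes called lower were 4 with library size only or with the replicate block. Binding and severing genes called lower were 0 with DESeq2, 1 with no filter and 1 to 2 with a library left out. Of all genes, 1431 were lower with DESeq2. The cause was not tested.

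By their labels, libraries of the same number share that number and a table, and what else they share is not given. The deviations of same-numbered libraries correlated at r = 0.042 over 15075 genes. With the replicate number as a block, the 7 tested isotypes other than TUBB2B were each higher, as without the block. Depth limits TUBA1A, TUBB3 and TUBB2B. Stretches shared chiefly with an overlapping gene limit TUBB3 and TUBA1B, and stretches shared chiefly with each other limit TUBB2A and TUBB2B.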
